A study of Mus musculus with 37 samples.

Results

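The hepatic growth hormone and IGF axis was followed through 10 genes of the 21450 gene symbols read by the TempO-Seq probe set: the receptor Ghr, the signal transducer Stat5b, its feedback targets Socs2 and Cish, the hormone Igf1, and the carrier proteins Igfals, Igfbp1, Igfbp2, Igfbp3 and Igfbp4. The genes were chosen by symbol, with earlier results of these data known. Every probe of each gene was taken, which gave 19 probes, of which 19 passed the filter on low counts and were tested among 18570 probes of 13004 genes. Livers came from 37 wild-type (WT) CD1 mice, Crl:CD1(ICR) in the study's methods, of a reproduction and developmental toxicity study of HFPO-DA, a short-chain PFAS used in making fluoropolymers, given once daily by oral gavage in deionized water at 0.1 mg/kg, 0.5 mg/kg or 5 mg/kg, with vehicle alone for the controls (0 mg/kg). Males numbered 5, 5, 5 and 4 in order of rising dose and females 5, 5, 4 and 4. Males received 84 to 85 daily doses, beginning 70 days ahead of pairing and ending with the 14-day mating period. Females received 53 to 65, which spanned the 14 days ahead of pairing, gestation and lactation up to day 20 or 21. The study's methods describe the females as the older animals at the start of dosing, so that sex, age, dosing period and recent lactation cannot be told apart in any comparison of females with males. The vehicle controls carried the same schedule and handling as the dosed animals of their sex.

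Growth hormone from the pituitary binds its receptor on hepatocytes, the receptor-bound kinase JAK2 phosphorylates STAT5, and STAT5 turns on Igf1, Igfals and the feedback inhibitors Socs2 and Cish. The liver releases most of the IGF-1 in blood, where it circulates chiefly in a complex with IGFBP3 and the acid-labile subunit encoded by Igfals, and the other binding proteins carry the rest and limit its access to the IGF receptor. The pattern of growth hormone release differs between male and female mice, and many genes of mouse liver, Socs2, Prlr and Cux2 among them, are known to follow it.

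The libraries were made from scraped sections of whole fixed liver, so fewer cells of a type and less RNA per cell cannot be told apart. Library totals ran from 2101495 to 10548222 counts in males and from 7952605 to 13878254 in females, and the 4 libraries under 5000000 counts were all male, with 2 of them among the 4 males at 5 mg/kg. Hepatocyte markers were abundant in all groups, and the summed level of the 4 with a probe ran from 11578 to 17960 CPM (counts relative to the total of the library) in male controls against 11186 to 13005 in males at 5 mg/kg, and from 15185 to 21427 in female controls against 13969 to 16379 in females at 5 mg/kg. Tat and Apoh among these markers were lower in the males and Ttr in the females, and none of the 4 was at 0 in all mice of a group. Of 6 endothelial markers, Kdr and Oit3 were lower in males at 5 mg/kg, where the summed level ran from 234 to 306 CPM against 275 to 394 in controls. On the probe with the most counts, no marker of Kupffer cells, stellate cells, cholangiocytes or lymphocytes passed the threshold at that dose in either sex. Of the 5 cholangiocyte markers, 3 were tested. The summed level of stellate cell and fibroblast markers ran from 212 to 303 CPM in males at 5 mg/kg, against 138 to 263 in control males. In females it ran from 150 to 462 CPM at 5 mg/kg, against 140 to 565 in controls. The part of these shifts in the results on the axis was not tested. CPM values here are scaled by TMM factors, and since probes differ in efficiency, levels are compared between mice for 1 probe and not between probes.

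At 5 mg/kg, 5 of the 10 genes had a called probe in males and 3 in females, and the male count was 3 with each sex fitted apart, with thinned counts or at a threshold of 0.05. In males, 7 of the 19 probes (36.8%) passed an adjusted p of 0.10 in the edgeR quasi-likelihood test with Benjamini-Hochberg adjustment, against 12.7% of all probes tested. They belonged to 5 genes, with Ghr, Igf1, Igfals and Igfbp4 lower and Socs2 higher than in control males. In females 4 of 19 probes passed (21.1%), against 4.52% of all probes, from Ghr and Igfbp4, which were lower, and Igfbp2, which was higher. The median log2 fold change of the 19 probes was -0.65 in males, where that of all probes tested was -0.12, and -0.57 in females, where that of all probes was -0.01. The genes were chosen with earlier results of these data known, and probes of the same gene are not independent. These shares and medians, and the later shares of the members, are therefore descriptions and not a test of the axis as a set. Stat5b, Cish, Igfbp1 and Igfbp3 had no probe past the threshold in either sex at any dose.

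At 0.1 mg/kg edgeR called 0 of 19 probes in males and 0 in females, against 0% of all probes in each sex. At 0.5 mg/kg it called 0 of 19 in males, against 0.625% of all probes, and 0 of 19 in females, against 0.113%. At an unadjusted p under 0.05 these comparisons held 3 and 1 of the 19 probes in males at 0.1 and 0.5 mg/kg (15.8% and 5.26%, against 7.14% and 10.3% of all probes) and 1 and 1 in females (5.26% each, against 2.38% and 4.33%). DESeq2, which is the program the study used, called 1 member, Socs2, in males at 0.1 mg/kg, and 0 in the other 3 comparisons.

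**Figure D1:**
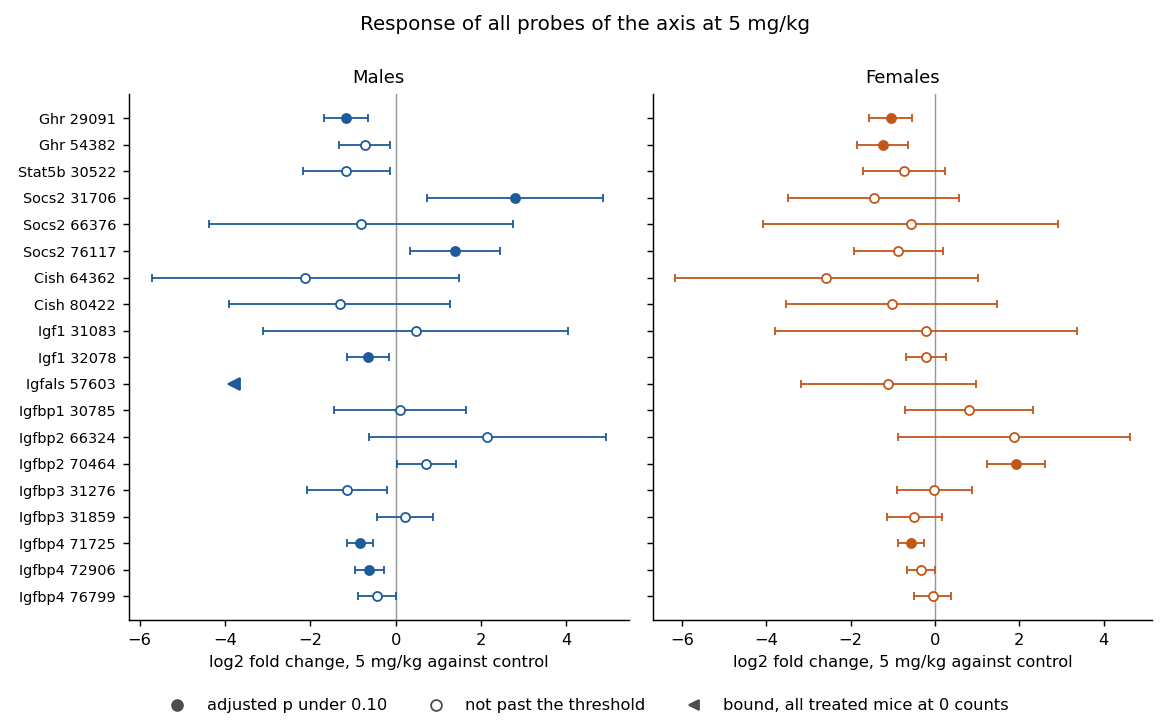
Log2 fold change at 5 mg/kg against the controls of the same sex for each of the 19 probes, in males (left) and females (right), with bars of 2 standard errors. Filled points passed an adjusted p of 0.10, and the triangle for Igfals in males is a bound, since all 4 treated mice had 0 counts; the Ghr and Igfbp4 probes lie on the lower side in both panels, while the 2 called Socs2 probes in males lie on the higher side.

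Ghr, which lies on chr15:3317760-3583492 (minus strand, GRCm38) and encodes the growth hormone receptor, was lower at 5 mg/kg in both sexes. The probe with more counts, 29091, gave 149, 124, 61.7, 112 and 147 CPM in the 5 control males and 58.2, 59.7, 22.9 and 69.8 CPM in the 4 males at 5 mg/kg. Of those males, 3 were below all controls and the one at 69.8 CPM was above the lowest control only. The log2 fold change was -1.16 (SE 0.258, edgeR adjusted p = 0.00205). In females the same probe gave 87.9, 115, 125, 144 and 168 CPM in controls and 64.4, 41.7, 54.3 and 86.9 CPM at 5 mg/kg, so that the groups did not overlap, with a log2 fold change of -1.05 (SE 0.255, edgeR adjusted p = 0.00866). The female call was lost when counts were thinned to the smallest library (adjusted p = 0.115). At the lower doses neither probe passed in either sex, and the means of probe 29091 were 121 ± 33.3 and 105 ± 25 CPM (SD, n = 5 each) at 0.1 and 0.5 mg/kg in males, whose controls had 119 ± 35.4 CPM (SD, n = 5). Females had 153 ± 19.2 CPM (SD, n = 5) and 120 ± 9.84 CPM (SD, n = 4) at these doses against 128 ± 30.1 CPM (SD, n = 5) in controls.

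The other Ghr probe, 54382, fell from 112 ± 24.6 CPM (SD, n = 5) in control females to 47.3 ± 16.3 CPM (SD, n = 4) at 5 mg/kg, again without overlap, with a log2 fold change of -1.25 (SE 0.299, edgeR adjusted p = 0.00763). In males it gave 96.9, 54.7, 41.2, 53.3 and 93.2 CPM in controls against 36.3, 41.4, 57.8 and 29.7 CPM at 5 mg/kg. The male groups overlapped on this probe, and its log2 fold change of -0.72 did not pass the threshold (edgeR adjusted p = 0.128). The 2 probes had a Pearson r of 0.68 over the 37 mice, given as a description, since both probes were read in the same libraries and groups. Without the 4 libraries under 5000000 counts, the male log2 fold change of probe 29091 was -0.92 (edgeR adjusted p = 0.0410).

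Stat5b (chr11:100780731-100850724, minus strand, GRCm38) encodes the transcription factor that carries the growth hormone signal to the nucleus. Its single probe had a mean of 14.8 ± 4.44 CPM (SD, n = 5) in control males and 6.69 ± 3.64 CPM (SD, n = 4) at 5 mg/kg, with individual values from 7.76 to 19.3 CPM and from 1.41 to 9.75 CPM. The groups overlapped through the lowest control, and the log2 fold change of -1.15 (SE 0.515) did not pass (edgeR adjusted p = 0.163). The female means were 25.8 ± 8.78 CPM without HFPO-DA (SD, n = 5) and 15.5 ± 5.64 CPM at 5 mg/kg (SD, n = 4), for a log2 fold change of -0.73 (SE 0.489, edgeR adjusted p = 0.695).

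Socs2 (chr10:95385362-95417180, minus strand, GRCm38) encodes an inhibitor that STAT5 induces and that shuts off the growth hormone receptor. Female controls had more of it than male controls: probe 76117 gave 7.02, 13.2, 12, 31.9 and 5.83 CPM in the females and 6.37, 1.56, 5.22, 3.59 and 1.71 CPM in the males. The ranges overlapped at the lowest female and the highest male. The log2 difference of females from males was 1.92 (SE 0.509, edgeR adjusted p = 0.0321), and Socs2 was the 1 called of 19 member probes in this comparison (5.26%), against 2.6% of all probes. The call was lost without female control mouse 4, at 31.9 CPM, and without male control mouse 2 or 5.

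In males the mean of probe 76117 lay above that of controls at each dose, and edgeR called it at 5 mg/kg alone, close to the threshold. At 0.1 mg/kg the 5 males had 17.5, 15.9, 20.7, 11.7 and 14.9 CPM on probe 76117, each above the highest control of 6.37 CPM. The log2 fold change of 2.12 (SE 0.512, unadjusted p = 0.000162, edgeR) did not pass over all probes (adjusted p = 0.513), while DESeq2 gave an adjusted p of 0.0508 and edgeR with no filter on low counts gave 0.0900. Males at 0.5 mg/kg had 5.00, 9.43, 4.69, 10.3 and 6.76 CPM, which overlapped the controls, and a log2 fold change of 0.96 (SE 0.506, edgeR adjusted p = 0.536). At 5 mg/kg the 4 males gave 4.48, 14.5, 4.13 and 15.1 CPM, of which the values of mice 1 and 3, from libraries under 5000000 counts, lay within the control range. The log2 fold change there was 1.39 (SE 0.529, edgeR adjusted p = 0.0959), and without the 4 libraries under 5000000 counts it was 1.95 (edgeR adjusted p = 0.0313).

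A further Socs2 probe, 31706, was also higher in males at 5 mg/kg, with 0, 16.4, 0 and 7.42 CPM against 0.480, 0, 1.74, 2.13 and 0 CPM in controls. Its log2 fold change of 2.79 (SE 1.03, edgeR adjusted p = 0.0856) rested on the 2 deeper libraries and was lost without male 5 mg/kg mouse 2 or 4 or control mouse 1, 2 or 5, with each sex fitted apart (adjusted p = 0.277), with thinned counts (adjusted p = 0.196) and at a threshold of 0.05. Probe 66376 held from 0 to 17 counts in the male controls and from 0 to 16 at 5 mg/kg and did not pass. The call of probe 76117 was lost without control mouse 2, 4 or 5, without 5 mg/kg mouse 2 or 4, when each sex was fitted apart, and when counts were thinned to the smallest library, with adjusted p from 0.147 to 0.370 in those fits, and with no filter on low counts (adjusted p = 0.110).

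No Socs2 probe passed at any dose in females. Probe 76117 gave 5.6, 15.7, 5.62 and 3.66 CPM at 5 mg/kg, inside or below the control range, with a log2 fold change of -0.87 (SE 0.524, edgeR adjusted p = 0.602). Set against each other, the female response at 5 mg/kg was lower than the male one by 2.26 on the log2 scale (interval of 2 SE from -3.75 to -0.77), and the edgeR test of this difference did not pass over all probes (unadjusted p = 0.00418, adjusted p = 0.242). It passed for Socs2 in DESeq2 and in edgeR without the 4 libraries under 5000000 counts. At 0.1 mg/kg the same difference was -2.61 (SE 0.702, edgeR unadjusted p = 0.000595, adjusted p = 0.857). Among the 19 member probes edgeR called 0 of these female minus male differences at any dose, against 0%, 0.0108% and 0.63% of all probes at 0.1, 0.5 and then 5 mg/kg, with 2, 1 and 4 member probes at an unadjusted p under 0.05 (10.5%, 5.26% and 21.1%, against 4.46%, 5.13% and 10.7% of all probes).

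**Figure D2:**
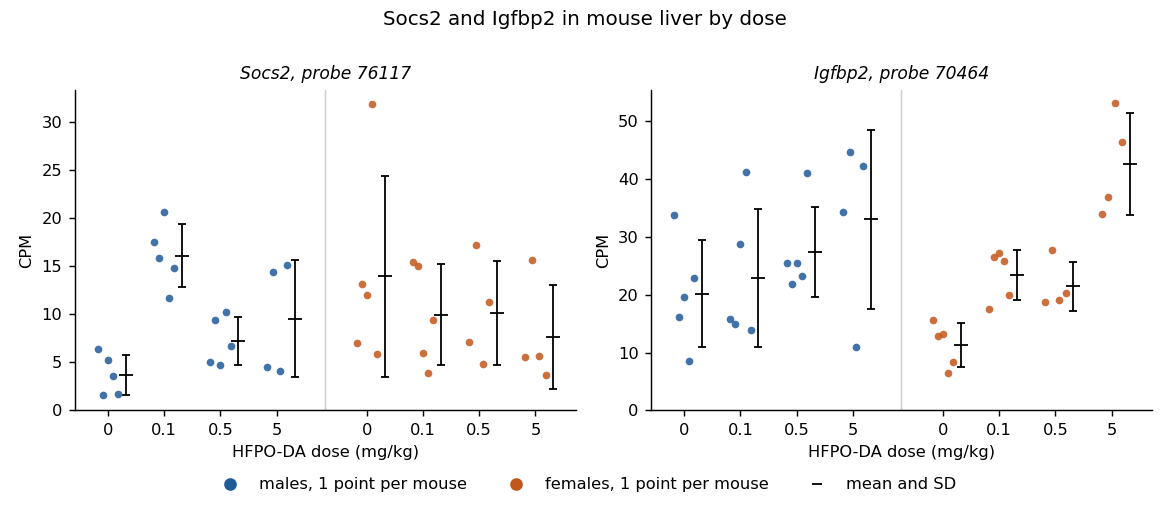
CPM of Socs2 (probe 76117) and Igfbp2 (probe 70464) by dose in males and females, with 1 point per mouse and bars for the mean and SD of each group. The 5 males at 0.1 mg/kg, from 11.7 to 20.7 CPM, lie above all male controls for Socs2, and the 4 females at 5 mg/kg, from 33.8 to 53.0 CPM, lie above all female controls for Igfbp2.

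Cish (chr9:107296026-107302784, plus strand, GRCm38) encodes another STAT5-induced inhibitor of cytokine receptors and lay near the limit of detection. Its probe with more counts, 80422, held 0 to 81 counts in control males and 0 to 22 at 5 mg/kg, and 6 to 78 in control females and 0 to 33 at 5 mg/kg. Log2 fold changes at 5 mg/kg were -1.31 (SE 1.29, edgeR adjusted p = 0.618) in males and -1.03 (SE 1.25, edgeR adjusted p = 0.976) in females, and neither passed.

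Igf1 (chr10:87858265-87937042, plus strand, GRCm38), the hormone itself, was read mainly by probe 32078. Control males had 25.3, 25.9, 38.1, 35.7 and 22.2 CPM and males at 5 mg/kg had 14.6, 28.4, 18 and 13.9 CPM. Of the 4 dosed males, 3 were below all controls, and male 2 at 28.4 CPM lay within their range. The log2 fold change of -0.65 (SE 0.242) passed by a small margin (edgeR adjusted p = 0.0908) and was lost in 10 of 11 other settings. It was also lost without control mouse 3 or 4 and without 5 mg/kg mouse 1, 3 or 4, with adjusted p from 0.149 to 0.197 in those fits. In females the probe gave 44.4, 30.3, 32, 33.5 and 27.2 CPM in controls and 35.4, 35.6, 23.7 and 20.9 CPM at 5 mg/kg, and the log2 fold change of -0.21 had an interval of 2 SE from -0.69 to 0.26 (edgeR adjusted p = 0.956). Females at 0.5 mg/kg had the highest mean, 44.7 ± 4.97 CPM (SD, n = 4) against 33.5 ± 6.54 CPM (SD, n = 5) in controls, which did not pass (log2 fold change 0.42, edgeR adjusted p = 1). The second Igf1 probe, 31083, was at 0 to 24 counts in control males and 0 to 28 counts at 5 mg/kg and did not pass in either sex.

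Igfals (chr17:24865997-24882010, plus strand, GRCm38) encodes the acid-labile subunit that keeps IGF-1 and its binding protein in the long-lived blood complex. Its windows before 2 of the 3 RefSeq starts hold the STAT5-type element TTCNNNGAA, which reads alike on both strands, and the start of Cish holds 2 such elements, so these are the sequences shown. The stretches below are plus strand of GRCm38.p6 from RefSeq, 5′ to 3′, with the element in capitals, and give the 250 bases before each of the 2 Igfals starts and 30 bases around that of Cish.
Igfals, chr17:24877594-24877843: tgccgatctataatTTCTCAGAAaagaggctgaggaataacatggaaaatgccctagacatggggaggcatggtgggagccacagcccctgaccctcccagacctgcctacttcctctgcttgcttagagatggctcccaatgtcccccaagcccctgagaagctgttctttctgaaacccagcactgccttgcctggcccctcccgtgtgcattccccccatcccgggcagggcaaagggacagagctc
Igfals, chr17:24877981-24878230: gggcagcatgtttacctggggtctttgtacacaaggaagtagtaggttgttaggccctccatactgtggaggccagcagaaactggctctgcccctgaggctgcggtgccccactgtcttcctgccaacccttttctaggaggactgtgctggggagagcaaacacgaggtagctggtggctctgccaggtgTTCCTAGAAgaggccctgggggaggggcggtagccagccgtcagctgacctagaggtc
Cish, chr9:107296654-107296683: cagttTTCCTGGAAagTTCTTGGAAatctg
The element lies 236 and 58 bases before the start in the Igfals windows, and at the start and 11 bases after it in Cish. The RefSeq table held 14 windows of 300 bases (250 before and 50 after the start) for 9 of the 10 members, and none for Socs2. Of these windows 3, from 2 genes, held the element, against 2726 of 32851 windows (8.3%) in the whole table. Counted by gene, 2 of the 9 members held it, against 2582 of 27025 genes (9.55%). The windows of Ghr, Stat5b, Igf1, Igfbp1, Igfbp2, Igfbp3 and Igfbp4 did not hold these letters. A match is a description of the letters and not a site of binding, and the deposited data hold no measurement of STAT5 on DNA.

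The single Igfals probe was low in all males. The 5 control males held 2, 29, 0, 13 and 25 counts, or 0.240, 3.76, 0, 1.73 and 3.55 CPM, and the 4 males at 5 mg/kg held 0 counts each. Set against a floor of 3 counts over the group, the level at 5 mg/kg was at least 13.9-fold lower than the control mean of 1.86 CPM, and at least 8.28-fold lower without 5 mg/kg mouse 2. These bounds cover counting error only and not the spread of the controls, which ran from 0 to 3.76 CPM. EdgeR gave an adjusted p of 0.0100, and the call held without each mouse in turn (adjusted p from 0.00451 to 0.0338) and without the libraries under 5000000 counts (adjusted p = 0.0370). In the controls 1 mouse was also at 0, so the groups touched there. Males at 0.1 and 0.5 mg/kg had 1.72 ± 2.10 and 1.03 ± 0.644 CPM (SD, n = 5 each), and neither passed (edgeR adjusted p = 1 and 0.926).

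Female livers held 4.61, 10.7, 2.25, 7.18 and 1.58 CPM of Igfals in controls and 3.62, 4.83, 1.23 and 0 CPM at 5 mg/kg. The groups overlapped, and the log2 fold change of -1.12 (SE 1.04) did not pass (edgeR adjusted p = 0.899). The difference between the female and male responses did not pass either (edgeR unadjusted p = 0.00749, adjusted p = 0.292), so the loss in males was not shown to differ from the response in females.

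**Figure D3:**
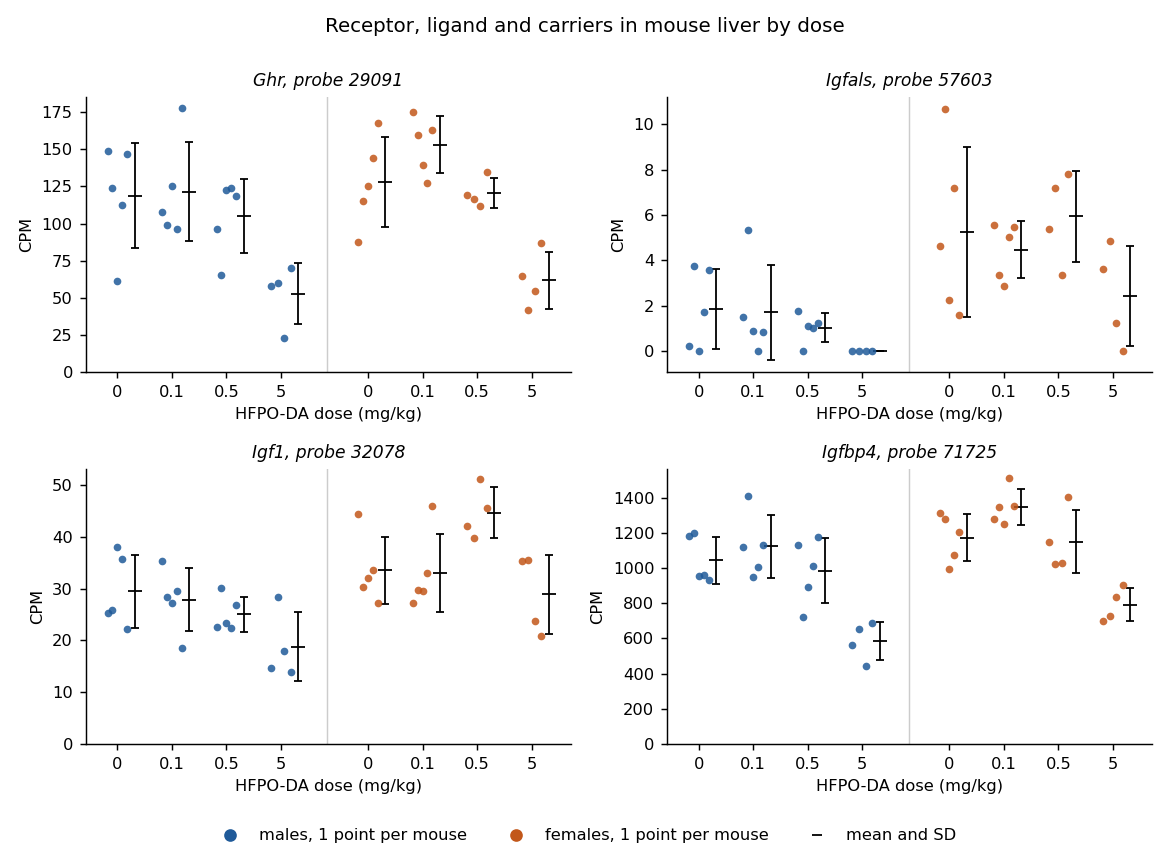
CPM of Ghr, Igfals, Igf1 and Igfbp4 by dose in males and females, with 1 point per mouse and bars for the mean and SD. For Ghr and Igfbp4 the groups at 5 mg/kg have the lowest means in both sexes; for Igfals the 4 males at 5 mg/kg lie at 0; for Igf1 male means run from 29.5 CPM in controls to 18.7 CPM at 5 mg/kg while females at 5 mg/kg overlap their controls.

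Igfbp4 (chr11:99041244-99054392, plus strand, GRCm38) encodes a binding protein that holds IGF-1 away from its receptor, and its main probe had the smallest standard errors among the 10 genes at 5 mg/kg. Probe 71725 gave 1182, 1199, 952, 958 and 931 CPM in control males and 560, 654, 444 and 687 CPM at 5 mg/kg. The groups did not overlap, and the log2 fold change was -0.83 (SE 0.157, edgeR adjusted p = 0.000252). Control females gave 1315, 1276, 996, 1074 and 1206 CPM and females at 5 mg/kg 698, 728, 837 and 904 CPM. These groups did not overlap either, and the log2 fold change was -0.57 (SE 0.155, edgeR adjusted p = 0.0258). That call was lost without female 5 mg/kg mouse 1 (adjusted p = 0.131) and when the probes of a gene were summed (adjusted p = 0.137). At 0.1 and 0.5 mg/kg the means were 1123 ± 178 and 985 ± 184 CPM (SD, n = 5 each) in males and 1348 ± 102 (SD, n = 5) and 1150 ± 177 CPM (SD, n = 4) in females, beside control means of 1044 ± 134 and 1173 ± 135 CPM (SD, n = 5 each).

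Probe 72906 of Igfbp4 followed probe 71725 over the 37 mice (Pearson r = 0.85) and fell in males, whose controls had 893 ± 121 CPM (SD, n = 5), to 583 ± 115 CPM (SD, n = 4), without overlap and with a log2 fold change of -0.61 (SE 0.168, edgeR adjusted p = 0.0151). That call was lost without the 4 libraries under 5000000 counts (log2 fold change -0.46, edgeR adjusted p = 0.187). In females its log2 fold change was -0.34 (edgeR adjusted p = 0.392). The remaining probe, 76799, was less alike (r = 0.26 with probe 71725) and gave a log2 fold change of -0.43 in males, beside -0.06 in females (edgeR adjusted p = 0.243 and 1). The Igfbp4 estimates thus differed between probes, and the differences between probes were not tested. All 3 estimates were below 0 in both sexes, but the female interval of 2 SE for probe 76799 ran from -0.51 to 0.39.

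Igfbp2 (chr1:72824503-72852474, plus strand, GRCm38) encodes a binding protein known to be raised in animals that lack growth hormone action. In control females probe 70464 gave 15.6, 12.9, 13.2, 6.49 and 8.33 CPM, and at 5 mg/kg it gave 33.8, 36.9, 53.0 and 46.4 CPM. Every dosed female exceeded every control, and the log2 fold change of 1.91 (SE 0.346, edgeR adjusted p = 0.000221) was called in all 11 other settings and without each mouse in turn. Females at the lower doses also lay above all controls: the 5 at 0.1 mg/kg had 17.6, 26.5, 27.2, 25.8 and 20.0 CPM and the 4 at 0.5 mg/kg had 18.7, 27.7, 19.1 and 20.3 CPM. Their log2 fold changes of 1.05 (SE 0.327, unadjusted p = 0.00256) and 0.92 (SE 0.343, unadjusted p = 0.0102) did not pass over all probes in edgeR (adjusted p = 1 for both).

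Males had more scattered Igfbp2 values. Controls gave 33.7, 16.1, 19.7, 8.51 and 22.9 CPM and the males at 5 mg/kg 34.2, 44.7, 10.9 and 42.2 CPM, of which male 3, the library with the lowest total, was alone within the control range. The log2 fold change was 0.72 (SE 0.343, edgeR adjusted p = 0.193), and it was 1.06 (edgeR adjusted p = 0.0529) without the 4 libraries under 5000000 counts. The female minus male difference in response was 1.19 (SE 0.487) and did not pass (edgeR unadjusted p = 0.0188, adjusted p = 0.378). The second probe, 66324, held 0 to 34 counts in the control and 5 mg/kg groups and gave a male log2 fold change of 2.15 (SE 1.39) and a female one of 1.87 (SE 1.37), neither of which passed.

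Igfbp1 and Igfbp3 lie next to each other on chromosome 11, at chr11:7197782-7202546 (plus strand) and chr11:7206086-7213923 (minus strand, GRCm38), 3539 bases apart. Igfbp1 encodes a binding protein that rises in fasting and falls with insulin, and its level varied widely between mice of a group. Probe 30785 ran from 7.58 to 111 CPM in control males and from 19.5 to 138 CPM at 5 mg/kg, and from 6.69 to 59.4 CPM in control females and from 29.3 to 79.9 CPM at 5 mg/kg. The male log2 fold change of 0.09 (SE 0.774) and the female one of 0.81 (SE 0.764) did not pass (edgeR adjusted p = 0.974 and 0.904), and the male value changed sign without single mice.

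Igfbp3, whose product carries most IGF-1 in blood and which liver sinusoidal cells are known to make, gave different answers by probe. Probe 31859 had 21.5 ± 5.91 CPM (SD, n = 5) in control males and 25.1 ± 11.9 CPM (SD, n = 4) at 5 mg/kg, for a log2 fold change of 0.22 (edgeR adjusted p = 0.777). Probe 31276 had 21.7 ± 12.1 CPM (SD, n = 5) and 9.57 ± 7.85 CPM (SD, n = 4), for a log2 fold change of -1.13 (edgeR adjusted p = 0.130). The probes had a Pearson r of 0.15 over the 37 mice. In females they gave -0.50 and -0.02 (edgeR adjusted p = 0.678 and 1). No direction can be given for Igfbp3 in males.

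**Figure D4:**
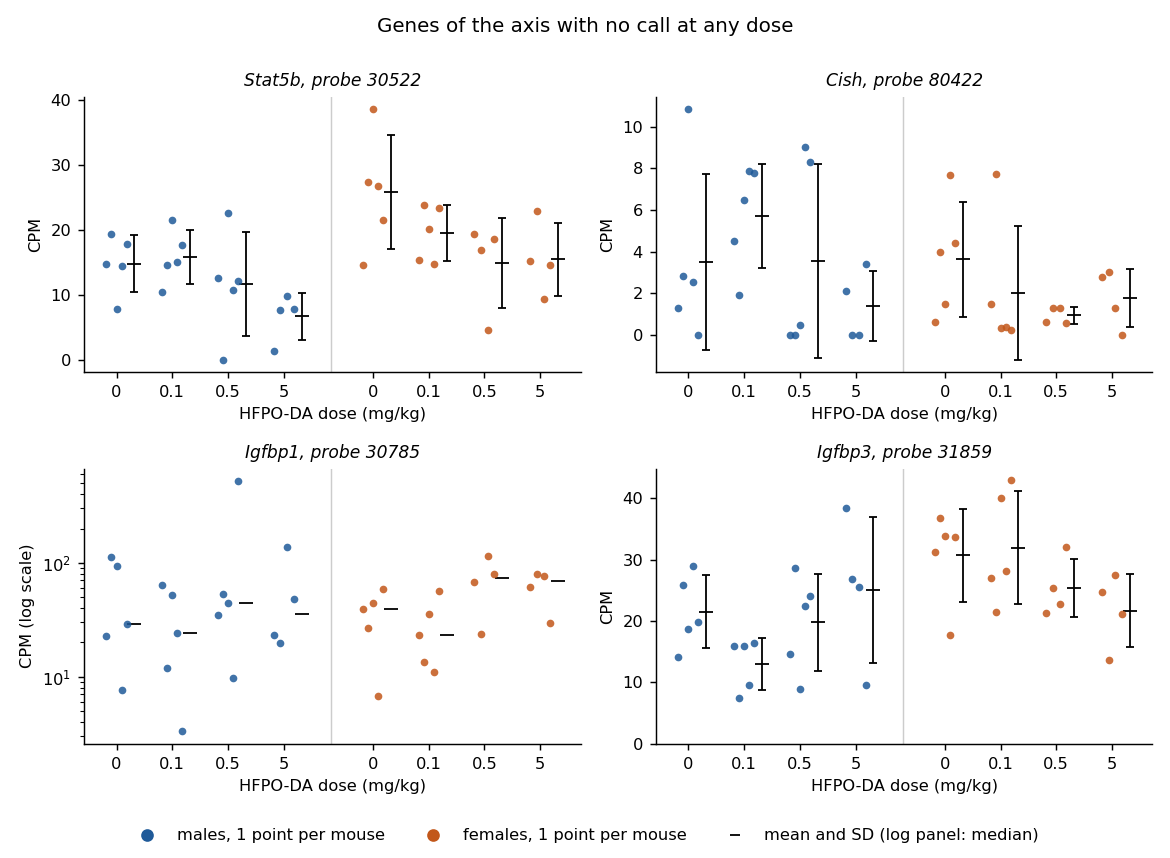
CPM of Stat5b, Cish, Igfbp1 (log scale) and Igfbp3 by dose in males and females, with 1 point per mouse, bars for the mean and SD, and for Igfbp1 a dash at the median. None of these genes had a probe past the threshold at any dose; 1 male at 0.5 mg/kg had 522 CPM of Igfbp1 where the other 4 had 9.64 to 52.8 CPM.

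Complete separation of the groups on the main probe of each gene was counted as well, with no test. In males it held for 1 of 10 genes at 0.1 mg/kg (Socs2), 0 at 0.5 mg/kg and 1 at 5 mg/kg (Igfbp4), where 0.7%, 1.35% and 7.58% of all probes separated. In females it held for 1 gene at 0.1 mg/kg and 1 at 0.5 mg/kg (Igfbp2 in each) and for 3 at 5 mg/kg (Ghr, Igfbp2 and Igfbp4), where 1.25%, 3.01% and 8.71% of all probes separated. Without the 4 libraries under 5000000 counts the dosed group at 5 mg/kg held 2 males, and the count was 4 (Stat5b, Socs2, Igfbp2 and Igfbp4), where 16.2% of the 20794 probes that then passed the filter separated. The dose groups of a sex share their controls, so these counts are not independent across doses.

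Other genes of the axis were read from a list of 40, of which 34 had tested probes (68 probes). This list was also drawn up with earlier results of these data known, so its shares are descriptions too. Their calls were not rerun in the other settings, without the libraries under 5000000 counts, or with mice left out. At 5 mg/kg, 9 of the 68 passed in males (13.2%), 1 higher and 8 lower, against 12.7% of all probes, and 6 passed in females (8.82%), 2 higher and 4 lower, against 4.52%. At 0.1 and 0.5 mg/kg edgeR called 0 in either sex, with 6 and 4 probes at an unadjusted p under 0.05 in males (8.82% and 5.88%, against 7.14% and 10.3% of all probes) and 2 and 6 in females (2.94% and 8.82%, against 2.38% and 4.33%).

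Among the signal transducers, Stat3, which relays interleukin signals and also some growth hormone signal, stood at 78.0 ± 19 CPM (SD, n = 5) in control males and fell to 41.5 ± 4.27 CPM (SD, n = 4) at 5 mg/kg, with a change of -0.91 on the log2 scale (edgeR adjusted p = 0.00839). The adaptor Shc1 fell on its main probe from 48.6 ± 7.47 to 32.8 ± 4.29 CPM (edgeR adjusted p = 0.0436), and its probe 77672 was also called lower. Stat3 had 2 tested probes and Shc1 had 4, and the probes of these genes not given here did not pass. Foxo1, the insulin-restrained factor known to drive Igfbp1, fell in males from 24.7 ± 10.1 to 5.85 ± 6.35 CPM (edgeR adjusted p = 0.0140). Single probes of Foxo3, Cebpa and Cux2, out of 4, 2 and 3 tested, were lower in males as well. For the adaptor Irs1, 1 probe was called higher on the counts of a single mouse, since 3 of the 4 dosed males were at 0.

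Prlr, the prolactin receptor, which also signals through STAT5, had the lowest adjusted p of the listed genes between control females, at 277 ± 36.8 CPM, and control males, at 39.9 ± 10.6 CPM (SD, n = 5 each, log2 difference 2.80, edgeR adjusted p = 8.02e-09). In females at 5 mg/kg it fell to 90.5 ± 19.1 CPM (SD, n = 4), a log2 fold change of -1.61 (edgeR adjusted p = 0.000636). Cux2, a repressor of male-biased genes in female mouse liver, stood at 26.5 ± 13.4 CPM in control females on probe 71776 and 0.437 ± 0.555 CPM in control males (SD, n = 5 each), and fell to 5.33 ± 3.43 CPM (SD, n = 4) in females at 5 mg/kg (log2 fold change -2.31, edgeR adjusted p = 0.0506). Its probe 66345 was lower in these females too. Igfbp5, a binding protein of mesenchymal cells, fell in females from 18.7 ± 3.53 to 4.30 ± 3.16 CPM (edgeR adjusted p = 0.0162).

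Cebpb, a transcription factor of the acute phase response that can act on the Igf1 promoter, moved in opposite directions on 1 of its 2 tested probes. Its probe 79860 fell in males from 448 ± 174 to 277 ± 98.8 CPM (edgeR adjusted p = 0.0856) and rose in females from 220 ± 66.9 to 378 ± 44.5 CPM (edgeR adjusted p = 0.0797). Both calls were close to the threshold, and probe 30534 passed against controls in neither sex. The female minus male difference was 1.48 on probe 79860 (SE 0.359, edgeR adjusted p = 0.0475), and probe 30534 gave 1.41 (SE 0.372, edgeR adjusted p = 0.0862). These were the 2 of 68 probes (2.94%) that passed this test at 5 mg/kg, against 0.63% of all probes. In control livers Cebpb was lower in females by 1.03 on the log2 scale on probe 79860 (edgeR adjusted p = 0.00929).

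Over the 37 mice, the genes whose log2 CPM was most like that of Ghr probe 29091 were Gm45753 (Pearson r = 0.91), Amy1 (0.90) and the bile acid conjugating enzyme Baat (0.89). Igfbp4 probe 71725 was most like coagulation factor F7 (r = 0.92), the glucose-6-phosphate transporter Slc37a4 (0.89) and the bile acid ligase Slc27a5 (0.88). For Igfals they were Vegfa, Enpp1 and Pzp (r = 0.83, 0.83 and 0.82), and for Igf1 Ahsg, AI182371 and Adra1b (0.73, 0.72 and 0.71). The values for Igfbp2 (Dab1, r = 0.67) and Socs2 (Adam9, r = 0.59) were lower. These are descriptions over mice that share group, depth and marker levels.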

How the data were processed

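Sections of fixed, paraffin-embedded liver were scraped from slides and assayed by TempO-Seq, in which pairs of probes are ligated on RNA and sequenced. Per the labels and the study's methods, the authors demultiplexed reads (bcl2fastq 2.17.1.14, submitters' processing notes), matched them to probes (Bowtie, version not given in the sources used here) and deposited whole-number counts per probe, without normalization, for 37 of 40 mice after removing 3 of low depth or few probes. The build of the probe sequences is not given in the sources used here.

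Counts of 30146 probes were filtered (filterByExpr), scaled by TMM and fitted in edgeR 4.0.16 (R 4.3.3) with a mean for each of 8 groups of sex and dose. The glmQLFTest p-values were adjusted by Benjamini-Hochberg over 18570 probes, and 0.10 was the threshold. The study set the same threshold but used DESeq2, so the edgeR calls here are not the study's own. SE is the log2 fold change over the square root of F. Groups came from the labels, and 0 pairs of libraries were identical. The p-values weigh a difference against the spread between mice, through a dispersion per probe that all groups of both sexes share. Alternatives were DESeq2 1.42.0, its size factors within edgeR, no filter, a minimum mean of 10 counts, a robust fit, sexes apart, probes summed, thinned counts, depth as a covariate, libraries over 5000000 counts, leaving out each mouse, and a threshold of 0.05. Positions are from GENCODE M21 (GRCm38), matched by symbol.

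The 10 genes and the lists of other genes and markers were chosen with earlier results of these data known. Every probe of the 10 was accounted for, the probe with the most counts was given mouse by mouse, and other genes of the axis were named where a probe passed at a dose, except for a result that is not reported here. Mice are numbered within a group in the order of the labels.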

Additional observations from a re-analysis of the deposited data

Results flagged for a closer look

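In 79 groups with a spread, formed by the main probes of the 10 genes and the 8 groups of mice, 9 had a highest or lowest mouse whose gap to the next exceeded Dixon's limit for the group's size. For normally distributed values chance flags about 1 in 20 such groups. Whether these CPM values, some of them at 0, follow that distribution was not tested. For Igfbp1, a male at 0.5 mg/kg had 522 CPM where the others had 9.64 to 52.8 CPM, and the same mouse was highest for Igfbp2, with 41.0 CPM against 21.9 to 25.5 CPM. For Socs2, female control mouse 4 had 31.9 CPM against 5.83 to 13.2 CPM in the others, and was lowest for Igfbp3, with 17.7 CPM against 31.3 to 36.9 CPM. A female at 5 mg/kg had 15.7 CPM of Socs2 against 3.66 to 5.62 CPM. Cish was at 10.8 CPM in a control male against 0 to 2.85 CPM and at 7.73 CPM in a female at 0.1 mg/kg against 0.260 to 1.48 CPM. Igfals was at 5.35 CPM in a male at 0.1 mg/kg against 0 to 1.5 CPM. Stat5b was at 4.6 CPM in a female at 0.5 mg/kg against 16.9 to 19.4 CPM.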

How the results depend on the processing

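The calls of Ghr probe 29091, Igfals and Igfbp4 probe 71725 in males, and that of Igfbp2 in females, at 5 mg/kg held in 11 settings each and without each mouse in turn. In males at 5 mg/kg the number of member genes called was 3 (Ghr, Igfals and Igfbp4) with each sex fitted apart, with thinned counts and at a threshold of 0.05, and from 3 to 7 when single mice were left out. In males at 0.1 mg/kg it was 1 (Socs2) with no filter and in DESeq2. For females against males in controls it was 0 with thinned counts, 2 without the libraries under 5000000 counts, and 0 to 1 when single mice were left out. For the female minus male response at 5 mg/kg it was 1 (Socs2) in DESeq2 and without those libraries. Genes without overlap numbered 1 to 2, 0 to 1 and 1 to 4 in males at 0.1, 0.5 and then 5 mg/kg and 1 to 4 in females at 0.5 mg/kg when single mice were left out, and 4 in males at 5 mg/kg without the libraries under 5000000 counts, where 2 dosed males remained and 16.2% of all probes separated. With 1 mouse left out, the share of all probes that separated was not computed, so those ranges are not a result on the genes. The log2 fold change changed sign for Igfbp1 in males at 5 mg/kg with depth as a covariate (-0.51), without those libraries (-0.69) and without single mice (-0.81 to 0.54), for Igfbp3 in males at 5 mg/kg with probes summed (-0.29), without those libraries (-0.27) and without 1 mouse (-0.10 at the lowest, 0.47 at the highest), for Igfbp2 in males at 0.1 mg/kg without those libraries (-0.12) and without single mice (-0.12 to 0.45), and for Socs2 in females at 0.1 and 0.5 mg/kg without control mouse 4 (0.063 and 0.091, with lowest values of -0.70 and -0.86). Ghr probe 29091 in females was lost with thinned counts (adjusted p = 0.115). Some of these settings hold fewer counts or mice, and the cause of the changes was not tested. Over all probes, sexes fitted apart at 5 mg/kg gave 1120 calls in males and 2093 for females, against 2359 and 839; thinned counts gave 1307 in males and DESeq2 1264 in females. At 0.5 mg/kg DESeq2 gave 319 in males and 76 for females, sexes apart 53 and 70, thinned counts 69 in males and no filter 34 in females, against 116 and 21; the male count was 59 without 0.5 mg/kg mouse 4 and 76 without control mouse 2. At 0.1 mg/kg DESeq2 gave 19 in males and 3 for females and no filter 14 and 1, against 0. For controls, females against males gave 812 in DESeq2 and 751 without the libraries under 5000000 counts, against 483. The female minus male response at 5 mg/kg gave 250 in DESeq2, 187 without those libraries, 76 with probes summed, 70 with thinned counts, and 205 and 217 without male 5 mg/kg mouse 2 and 4, against 117. At 0.5 mg/kg this difference gave 14 with no filter, 7 in DESeq2, 1 with depth as a covariate, 0 with a robust fit or thinned counts and 0 to 4 without single mice, against 2, and at 0.1 mg/kg 6, 4 and 1 with no filter, in DESeq2 and with thinned counts and 1 without female control mouse 1, against 0. The share called higher at 5 mg/kg in males was 33.2% with TMM and 42.0% with DESeq2 size factors. Each group of sex and dose held different mice, and the labels give neither pairs nor replicate numbers, so no paired analysis was run.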
